A study of Mus musculus with 143 samples.

Results

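Among 143 single microglia sorted from the cerebellum of mice at postnatal day 7, 64 cells carried RNA of Atp6v0d2 at 10 CPM or more, CPM being the count of a gene scaled to 1000000 gene counts in its cell. Another 77 cells had 0 Atp6v0d2 counts, and these were the cells they were compared with. The remaining 2 cells had counts but lay under the limit, and they entered neither group. The groups were chosen by the measured Atp6v0d2 level itself, so the level of that gene in either group is a description of the choice and not a result. CPM leaves out the spike-in rows of the table.

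Both groups came from the same sort and carry the same labels. The animals were wild type males of the C57BL6N strain, untreated as far as the labels say, and their cerebella were pooled, so that no cell can be assigned to an animal. The gate took live cells with low CD45, CD11b, Gpnmb and Clec7a on the surface, which enriches for proliferative-region-associated microglia (PAM), an early postnatal state found near developing white matter. RNA was read by Smart-seq2, which covers whole transcripts and does not tag single molecules. Plate 1 held 95 cells and plate 2 held 48 cells, and a plate is a technical batch. With 1 pool of animals there is 1 sample, so no p-value is given, and intervals cover counting error only. A result is described as shared where it was found on each plate.

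The vacuolar proton pump (V-ATPase) acidifies lysosomes and endosomes. Its V1 sector hydrolyses ATP on the cytosolic side, its V0 sector carries protons through the membrane, and the d subunit of V0 links the membrane ring to the central stalk. Mice have a widely expressed d subunit, encoded by Atp6v0d1, and a second one, encoded by Atp6v0d2, which is known mainly from osteoclasts, kidney and some macrophages. In osteoclasts it is needed for efficient cell fusion and is controlled by the factors Nfatc1 and Mitf. Microglia at this age engulf dying cells and myelin debris, which they degrade in lysosomes.

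Atp6v0d2 (ENSMUSG00000028238.6; GRCm38 chr4:19876841-19922605, minus strand) was read in a nearly all-or-none manner. The expressing cells made up 44.8% of all cells (exact 95% interval 36.4 to 53.3%), with 40 of 95 cells on plate 1 (42.1%) and 24 of 48 cells on plate 2 (50.0%). Within the 64 expressing cells the level ran from 17.8 to 2619 CPM with a median of 578 CPM, and the quartiles were 284 and 1056 CPM. The median was 632 CPM on plate 1 and 460 CPM on plate 2. Of these cells, 62 had at least 100 CPM and 19 had at least 1000 CPM. Summed over the group, the level was 772 CPM (Poisson 95% interval 764 to 780). When the CPM values of the single cells were added, the 3 highest cells supplied 15.1% of the sum. The group of 77 cells had 0 counts because its cells were chosen for that, so no upper limit is given for the group. By the counting of reads alone, a count of 0 allows up to 4.05 CPM in its median single cell. RNA lost before sequencing is not covered by this limit, so a 0-count cell can have held more.

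Few cells lay near the limit. The cells just under it had 1.19 CPM (1 count, plate 1) and 7.18 CPM (4 counts, plate 2), and those just above it had 17.8 CPM (11 counts, plate 1) and 18.6 CPM (12 counts, plate 2). The next cell had 103.7 CPM. When every cell was thinned to 200000 gene counts, which kept all 143 cells, 64 cells again reached 10 CPM.

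**Figure D1:**
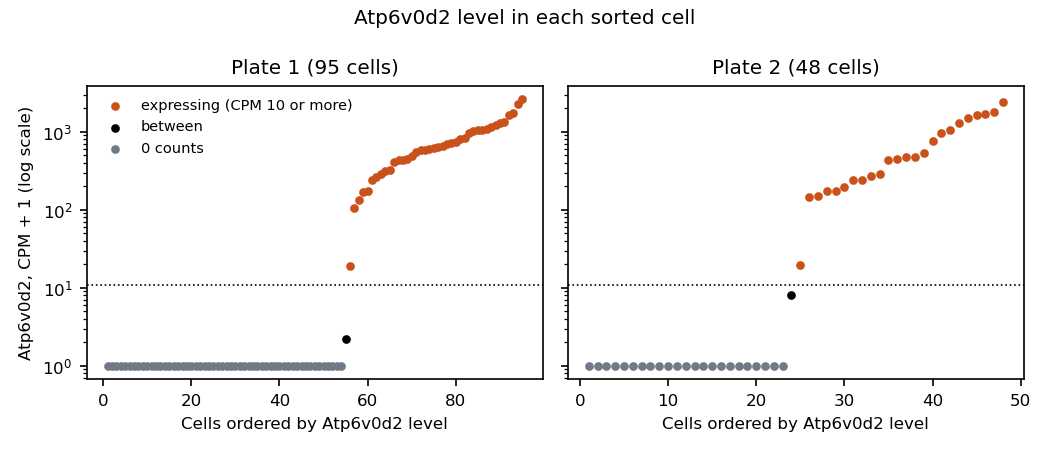
Atp6v0d2 level of each cell (vertical axis, CPM + 1, log scale) on plate 1 and plate 2, with cells ordered by that level along the horizontal axis. Orange points are the 64 expressing cells, black points the 2 cells between, grey points the 77 cells with 0 counts, and the dotted line marks 10 CPM; all but 2 expressing cells lie at or above 100 CPM.

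The groups were alike in depth and RNA quality. Median gene counts per cell were 710479 in expressing cells and 741189 in 0-count cells, within a range of 259613 to 1178529 over all cells. The median number of genes detected was 3267 in expressing cells and 3232 in 0-count cells, and for every spike-in count the median cell held 24.9 gene counts in expressing cells and 24.1 in 0-count cells. Ribosomal RNA precursor (Rn45s) took a median of 9.40% of counts in expressing cells and 8.77% in 0-count cells. Both groups read as microglia: Cx3cr1, Csf1r, Fcrls and Trem2 were read in at least 98.4% of the cells of each group, and Tmem119 in 21.9% of expressing cells and 29.9% of 0-count cells.

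Across 7615 genes with a pooled level of 10 CPM or more over all cells, Atp6v0d2 itself left out, the plates gave little common signal gene by gene. The level of a group is its summed counts, scaled to CPM by its summed gene counts, and the ratio is the log2 of expressing over 0-count cells with 1 CPM added to each. The ratios had the same sign on both plates for 53.4% of the genes, and their Spearman correlation across genes, which are not independent replicates, was 0.08. Genes at least 2-fold apart overall and on each plate made up 1.33% of those compared in the direction higher in expressing cells, and 216 genes (2.84%) were lower. Higher by any amount on both plates were 1681 genes (22.1%), and lower by any amount on both plates were 2384 (31.3%). The median ratio of all genes compared was -0.07. These shares are the background against which the gene groups below are read.

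**Figure D2:**
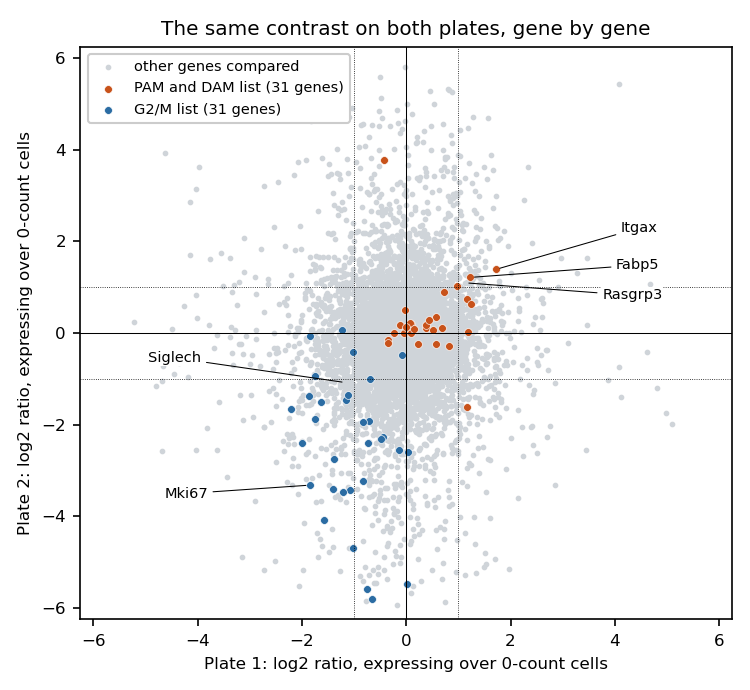
Log2 ratio of expressing over 0-count cells for each gene compared, on plate 1 (horizontal axis) and plate 2 (vertical axis), with the 31 PAM genes in orange and the 31 G2/M genes in blue. Dotted lines mark 2-fold; Itgax, Fabp5 and Rasgrp3 lie beyond them in the upper right, and Mki67 and Siglech in the lower left.

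The genes that tracked Atp6v0d2 most closely were Fabp5, which encodes a fatty acid binding protein, and Itgax, which encodes the integrin alpha chain CD11c. Over all cells of a plate, the Spearman correlation with Atp6v0d2 was 0.51 on plate 1 and 0.56 on plate 2 for Fabp5, and 0.51 and 0.50 for Itgax. Next came Aplp2, an amyloid precursor-like protein (0.45 and 0.41), and Rasgrp3, a Ras guanine nucleotide exchange factor (0.32 and 0.36). They were followed by Fam20c, the kinase that phosphorylates secreted proteins such as osteopontin (0.35 and 0.32), and Spp1, osteopontin itself (0.34 and 0.32). The tetraspanin Cd63, the growth factor gene Igf1 and the sugar-nucleotide transporter family member Slc35a5 had 0.30 or more on both plates, and Vat1 had 0.297 on plate 1 and 0.40 on plate 2. These 10 are the highest of the genes read in at least 20% of cells, ranked by the smaller of the plate values. All of them were higher in expressing cells on each plate. That follows largely from the ranking, because the 0-count cells tie at the lowest Atp6v0d2 rank, and is no further result.

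Itgax (GRCm38 chr7:128129547-128150657, plus strand) had the largest pooled ratio of the PAM genes that were higher on both plates. Its level ran from 0 through a median of 196 to 1831 CPM in expressing cells, against 0, 0 and 1036 CPM in 0-count cells. The ranges overlapped, and the difference lay mainly in how many cells held any Itgax read. These were 49 of 64 expressing cells (76.6%, exact interval 64.3 to 86.2%) and 24 of 77 0-count cells (31.2%, 21.1 to 42.7%). The shares were 77.5% in expressing cells against 29.6% in 0-count cells on plate 1, and 75% in expressing cells against 34.8% in 0-count cells on plate 2. Pooled, Itgax stood at 288 CPM in expressing cells and 92.2 CPM in 0-count cells, a 3.12-fold ratio, with log2 ratios of 1.72 on plate 1 and 1.39 on plate 2. Turned round, 49 of the 75 cells with an Itgax read expressed Atp6v0d2 (65.3%), against 15 of the 68 cells without one (22.1%).

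Fabp5 (GRCm38 chr3:10012548-10016607, plus strand) was read in every expressing cell and in 84.4% of the 0-count cells. Its level ran from 32.9 through a median of 507 to 1565 CPM in expressing cells, against 0, 165 and 865 CPM in 0-count cells. The log2 ratio was 1.23 on plate 1 and 1.22 on plate 2, so both plates gave nearly the same difference, with overlapping ranges. Fabp5 has processed copies elsewhere in the genome, and the sources used here do not say how reads that match several places were counted, so its level is uncertain to that extent.

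Rasgrp3 (GRCm38 chr17:75435896-75529054, plus strand) had a median of 196 CPM in expressing cells and 42.3 CPM in 0-count cells, with log2 ratios of 1.12 and 1.1 on plates 1 and 2. Fam20c had medians of 237 CPM in expressing cells and 0 CPM in 0-count cells, and was read in 71.9% of expressing cells and 37.7% of 0-count cells. Reads of Itgax, Fam20c and Rasgrp3 together in 1 cell were found in 31 of 64 expressing cells (48.4%) and 10 of 77 0-count cells (13%). These genes were picked for their correlation with Atp6v0d2, so the shares describe the choice. The more abundant genes differed by less. Aplp2 (GRCm38 chr9:31149557-31211815, minus strand) ran from 183 through a median of 933 to 3595 CPM in expressing cells and from 0 through 573 to 3201 CPM in 0-count cells. Its log2 ratios were 0.87 and 0.45 on plates 1 and 2.

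Igf1, which encodes insulin-like growth factor 1, had a median of 1308 CPM in expressing cells, with a range of 478 to 2986 CPM, and a median of 896 CPM in 0-count cells, with a range of 53.8 to 3214 CPM. Its low tail lay in the 0-count cells, and its log2 ratio was 0.57 on plate 1 and 0.36 on plate 2. Igf1 overlaps the antisense gene Igf1os, and whether reads were counted by strand is not given. Spp1 was the most abundant of these genes by counts, with a median of 55158 CPM in expressing cells and 40381 CPM in 0-count cells and log2 ratios of 0.44 and 0.28. Cd63 had medians of 2873 CPM in expressing cells and 2424 CPM in 0-count cells.

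**Figure D3:**
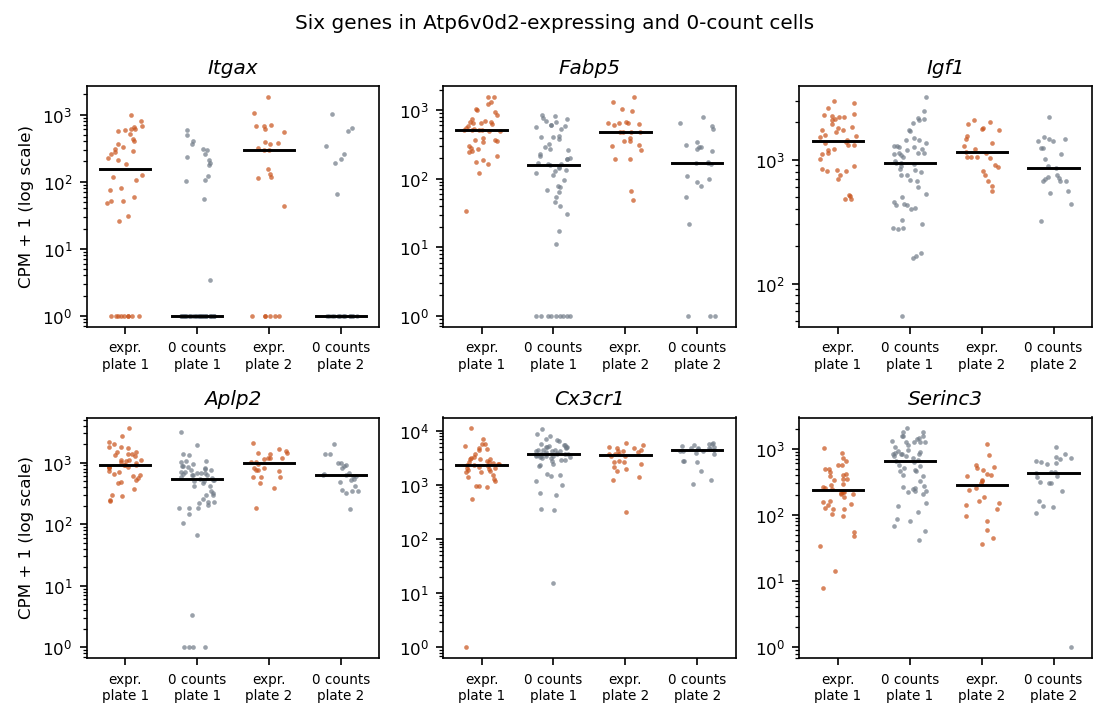
Level of Itgax, Fabp5, Igf1, Aplp2, Cx3cr1 and Serinc3 in each cell (vertical axis, CPM + 1, log scale), in expressing cells (orange) and 0-count cells (grey) of each plate; black bars are medians. On each plate the medians of Itgax, Fabp5, Igf1 and Aplp2 are higher and those of Cx3cr1 and Serinc3 lower in expressing cells, and the ranges overlap for every gene.

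Among the 64 expressing cells alone, the Spearman correlation with the Atp6v0d2 level was 0.48 for Itgax (0.38 on plate 1 and 0.63 on plate 2), 0.35 for Fabp5, 0.35 for Cd63 and 0.33 for Aplp2. It was lower for Spp1 and Igf1, at 0.18 each, and was 0.07 for Gpnmb. The cells were chosen by the same Atp6v0d2 values, and most of these genes for their correlation over all cells, so the values describe the cells and support nothing. The cells also share their library preparation and sequencing.

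The promoters of 4 of the 10 closest-tracking genes held a letter match to an AP-1 or a PU.1 motif, and these promoters are printed to show the matches. The promoter of Aplp2 and a second promoter each of Rasgrp3 and Spp1 held 0 matches and are not printed. Promoters run from 250 bases before to 50 bases after the start of transcription and are RefSeq sequences on GRCm38.p6, all on the plus strand. They lie at chr7:128129300-128129599 for Itgax, chr10:87860861-87861160 for Igf1, chr5:104434861-104435160 for Spp1 and chr17:75435655-75435954 for Rasgrp3. Capitals mark the match, which begins at position -56 in Itgax and -37 in Igf1 for AP-1 and at -113 in Spp1 and -50 in Rasgrp3 for PU.1.
Itgax: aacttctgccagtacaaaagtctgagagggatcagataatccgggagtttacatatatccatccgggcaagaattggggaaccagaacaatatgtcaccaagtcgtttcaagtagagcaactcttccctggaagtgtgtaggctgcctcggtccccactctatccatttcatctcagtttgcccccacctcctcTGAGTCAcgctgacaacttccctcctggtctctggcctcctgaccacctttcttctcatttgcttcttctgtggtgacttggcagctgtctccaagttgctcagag
Igf1: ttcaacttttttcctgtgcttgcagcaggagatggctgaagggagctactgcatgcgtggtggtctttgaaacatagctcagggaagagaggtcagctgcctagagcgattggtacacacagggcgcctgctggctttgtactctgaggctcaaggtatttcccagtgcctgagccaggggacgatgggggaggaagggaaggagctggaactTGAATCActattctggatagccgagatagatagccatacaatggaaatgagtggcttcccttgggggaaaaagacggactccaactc
Spp1: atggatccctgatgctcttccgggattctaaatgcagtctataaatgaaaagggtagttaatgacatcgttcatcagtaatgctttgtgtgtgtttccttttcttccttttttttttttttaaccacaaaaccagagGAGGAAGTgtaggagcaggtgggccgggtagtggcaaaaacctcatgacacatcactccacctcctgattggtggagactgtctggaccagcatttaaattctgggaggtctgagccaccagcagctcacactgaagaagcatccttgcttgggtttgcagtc
Rasgrp3: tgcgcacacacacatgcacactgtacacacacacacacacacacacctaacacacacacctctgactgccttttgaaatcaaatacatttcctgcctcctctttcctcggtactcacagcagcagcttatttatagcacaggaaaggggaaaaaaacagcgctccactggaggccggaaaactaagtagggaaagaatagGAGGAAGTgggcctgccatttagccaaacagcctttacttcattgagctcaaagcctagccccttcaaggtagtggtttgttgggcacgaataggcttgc

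The motifs searched, on both strands, were TGANTCA for AP-1, GAGGAAGT for PU.1, CACGTG for an E-box and TCATGTG for an M-box, the element of the Mitf family. Each promoter printed held 1 match. Of the 10 genes, 9 were matched to the table, with 11 promoters, of which 2 (18.2%) held AP-1, 2 held PU.1, 1 (9.09%) held an E-box and 0 held an M-box. Over all 32851 promoters the shares were 7.81% for AP-1, 3.20% for PU.1, 7.15% for the E-box and 3.77% for the M-box. Of 23 V-ATPase subunit genes, 17 were matched, and 4 of their 22 promoters (18.2%) held an E-box. A match is a stretch of letters and does not show that a factor binds there.

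The other subunits of the pump were compared between the same groups. Because the groups were chosen by Atp6v0d2, these ratios do not show whether another subunit was itself read all-or-none. None of the 7 V0 genes and 8 V1 genes compared was 2-fold apart overall and on each plate in either direction, against 1.33% of all genes higher and 2.84% lower. Among the V0 genes 3 were higher and 1 was lower on both plates, and among the V1 genes 5 were higher and 1 was lower, against 22.1% and 31.3% of all genes. The median log2 ratio of V0 was 0.13, but its sign differed between plates (0.16 on plate 1 and -0.05 on plate 2). That of V1 was 0.16 (0.10 on plate 1 and 0.22 on plate 2).

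Per kilobase of exon, Atp6v0d2 ranked 4th of 18 V-ATPase genes in the expressing cells, at 284 CPM per kilobase. Higher there were the stalk gene Atp6v1g1 at 526, Atp6v1f at 419 and the proteolipid gene Atp6v0b at 399 CPM per kilobase, and these stood at 470, 373 and 403 CPM per kilobase in 0-count cells. The alternative d subunit gene Atp6v0d1 had a pooled level of 217 CPM in expressing cells and 184 CPM in 0-count cells, with a log2 ratio of 0.13 on plate 1 and 0.71 on plate 2. Its level was not lower in expressing cells on either plate. Per kilobase Atp6v0d2 exceeded Atp6v0d1 in 45 of the 64 expressing cells, and it made up 70.2% of the summed d subunit reads per kilobase of the group. The cells were chosen by their Atp6v0d2 level, so its rank and these shares describe the choice and are no result. Values per kilobase also rest on the exon lengths used, and how reads that match several places were counted is not given. Atp6v0d1 went unread in 3 of 64 expressing cells and in 4 of 77 0-count cells.

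The V-ATPase genes furthest apart on both plates were sparse. Atp6v1h, a regulatory subunit of V1, had 123.1 CPM pooled in expressing cells and 75.1 CPM in 0-count cells, with log2 ratios of 0.52 and 1.17. Atp6v0a2, an a subunit of V0 known from the Golgi and endosomes, had 35.6 CPM in expressing cells and 57.9 CPM in 0-count cells, with ratios of -0.63 and -0.71. Tcirg1, the a subunit used by osteoclasts, had 288 CPM in expressing cells and 264 CPM in 0-count cells, with ratios of 0.21 and -0.05. Of 6 assembly and accessory genes, Atp6ap1 was higher on both plates, with 937 CPM in expressing cells and 850 CPM in 0-count cells, and Vma21 was lower on both.

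**Figure D4:**
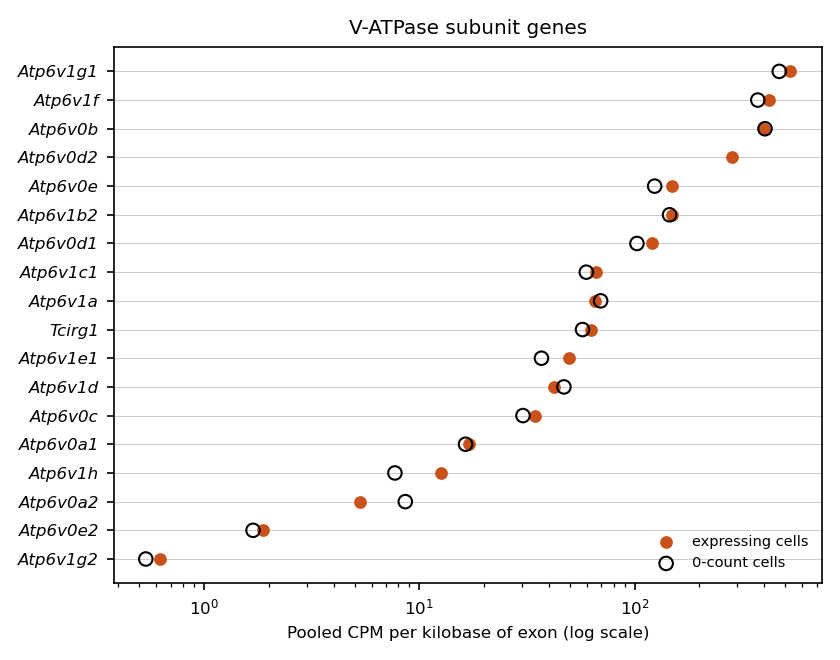
Pooled level of 18 V-ATPase subunit genes in CPM per kilobase of exon (horizontal axis, log scale), in expressing cells (filled orange) and 0-count cells (open circles), ordered by the level in expressing cells. Atp6v0d2 has no open circle because 0-count cells were chosen for having none, and for the other abundant subunits the paired symbols lie close together.

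Of the lysosomal lists given here, only the proteases had medians of the same sign on both plates. Of 20 lysosome membrane genes, 6 were higher and 8 lower on both plates, against 22.1% and 31.3% of all genes. Their median log2 ratio was -0.08, near that of all genes at -0.07. The 1 gene past 2-fold and higher, against 1.33% of all genes, was Slc38a9, an arginine sensor of the mTORC1 pathway. It had 42.5 CPM in expressing cells and 15.3 CPM in 0-count cells. Of 15 lysosomal proteases 8 were higher and 2 lower on both plates, against 22.1% and 31.3% of all genes, with a median log2 ratio of 0.08, and 0 passed 2-fold. Cathepsin L, encoded by Ctsl, had medians of 5599 CPM in expressing cells and 4621 CPM in 0-count cells, while the asparaginyl endopeptidase gene Lgmn had 5814 CPM in expressing cells and 7136 CPM in 0-count cells. Of 27 glycosidases and lipid hydrolases, 6 were higher and 6 lower on both plates, with a median log2 ratio of -0.06. The 1 gene of the 27 past 2-fold and lower, near the 2.84% of all genes, was Hgsnat, an enzyme of heparan sulfate breakdown. It had 77.05 CPM in expressing cells and 188 CPM in 0-count cells.

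The MiT family factors, which bind lysosomal gene promoters, were read at low levels. Tfeb had 27.4 CPM pooled in expressing cells and 8.90 CPM in 0-count cells, with log2 ratios of 0.63 on plate 1 and 1.67 on plate 2, and was read in 20.3% of expressing cells and 6.49% of 0-count cells. Tfe3 had 90.7 CPM in expressing cells and 76.02 CPM in 0-count cells. Mitf was read in 45.3% of expressing cells and 25.97% of 0-count cells, but its ratio was 0.68 on plate 1 and -0.15 on plate 2, and Tfec also differed in sign. None of the 4 passed 2-fold on both plates, and their median ratio of 0.33 was -0.043 once cells with S phase or G2/M RNA, described below, were left out.

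Several genes that define osteoclasts were not read in these cells. Ctsk, Dcstamp, Ocstamp, Mmp9 and Oscar had 0 reads in all 143 cells, and Calcr was read in 1 cell. Nfatc1 was read in 35.9% of expressing cells and 33.8% of 0-count cells, and Acp5, tartrate-resistant acid phosphatase, had 5.31 CPM in expressing cells and 15.0 CPM in 0-count cells. Tnfrsf11a, the receptor for the osteoclast cytokine RANKL, had 75.9 CPM in expressing cells and 80.7 CPM in 0-count cells, with ratios of 0.64 and -1.83. Of the 8 osteoclast and fusion genes compared, 3 were higher and 2 lower on both plates, against 22.1% and 31.3% of all genes. The higher ones were Bhlhe40, Creg1 and the integrin gene Itgav, which had 47.8 CPM in expressing cells and 31.9 CPM in 0-count cells, and the lower ones were Nfatc1 and Acp5. Traf6, a signalling adaptor downstream of that receptor, had 26.7 CPM in expressing cells and 15.2 CPM in 0-count cells, with ratios of 1.12 and -0.0046. Of the 8, Bhlhe40, a transcription factor, was past 2-fold and higher, at 44.1 CPM in expressing cells and 8.42 CPM in 0-count cells. Acp5 was past 2-fold and lower. Over all genes, 1.33% were past 2-fold and higher and 2.84% past 2-fold and lower.

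PAM and disease-associated microglia (DAM) genes leaned towards the expressing cells. Of 31 compared, 19 were higher and 3 lower by any amount on both plates, against 22.1% and 31.3% of all genes. Past 2-fold and higher were 2, Itgax and Fabp5, against 1.33% of all genes. The median log2 ratio was 0.16 (0.38 on plate 1 and 0.11 on plate 2). Summed, the 32 listed genes took 17.1% of gene counts in expressing cells and 15.0% in 0-count cells. The members were uneven. The galectin Lgals3 had medians of 1290 CPM in expressing cells and 752 CPM in 0-count cells, and the pyrophosphate transport gene Ank was read in 65.6% of expressing cells and 44.2% of 0-count cells. Trem2, the lipid-sensing receptor, had medians of 1314 CPM in expressing cells and 1312 CPM in 0-count cells, and its adaptor Tyrobp had 2522 CPM in expressing cells and 2344 CPM in 0-count cells. Apoe, the main lipid carrier, had pooled ratios of -0.12 on plate 1 and 0.18 on plate 2.

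The genes of the sort gate did not separate the groups. Gpnmb had medians of 3786 CPM in expressing cells and 3102 CPM in 0-count cells, with log2 ratios of -0.03 and 0.51. Clec7a had 320 CPM in expressing cells and 331 CPM in 0-count cells, with ratios of 0.22 and -0.24. Itgam, the gene of CD11b, was higher on both plates (0.43 and 0.44), and Ptprc, the gene of CD45, differed in sign.

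Homeostatic microglia genes leaned the other way by the count of genes, but by their median on plate 1 only. Of 24 compared, 12 were lower and 2 higher on both plates, against 31.3% and 22.1% of all genes. The median log2 ratio was -0.20 (-0.29 on plate 1 and -0.09 on plate 2). Over all genes compared the median was -0.06 on plate 1 and -0.09 on plate 2, so the list did not stand apart on plate 2. Past 2-fold and lower were 2 of the 24, against 2.84% of all genes. These were Siglech, a sialic acid binding receptor, at 99.8 CPM in expressing cells and 225 CPM in 0-count cells, and the sugar transporter gene Slc2a5. Slc2a5 was read in 1.56% of expressing cells and 9.09% of 0-count cells. The purinergic receptor gene P2ry12 had medians of 198 CPM in expressing cells and 334 CPM in 0-count cells, with ratios of -0.74 and -0.50. The fractalkine receptor gene Cx3cr1 had medians of 2645 CPM in expressing cells and 3864 CPM in 0-count cells, with ratios of -0.37 and -0.29. Others did not follow on both plates, among them Csf1r, Fcrls, Sall1 and P2ry13.

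Outside the lists, Serinc3, a multipass membrane protein that restricts retroviruses, had a correlation with Atp6v0d2 of -0.44 on plate 1 and -0.40 on plate 2, the lowest when genes were ranked by the plate value nearer to 0. Its level ran from 6.76 through a median of 247 to 1176 CPM in expressing cells, against 0, 569 and 2015 CPM in 0-count cells, and the log2 ratio was -1.32 on plate 1 and -0.48 on plate 2. Within the 64 expressing cells its correlation was -0.37. Tmsb4x, the actin-binding thymosin beta 4, had medians of 4151 CPM in expressing cells and 4871 CPM in 0-count cells, and the superoxide dismutase gene Sod1 had 203 CPM in expressing cells and 335 CPM in 0-count cells.

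Genes of mitosis were lower in the expressing cells. Of 31 G2/M genes, 28 were lower on both plates and 0 were higher, against 31.3% and 22.1% of all genes, and 14 were past 2-fold on both plates against 2.84%. The median log2 ratio was -1.41 (-1.07 on plate 1 and -2.31 on plate 2), and the summed level was 832 CPM in expressing cells and 2186 CPM in 0-count cells. Mki67, the proliferation marker, had 49.3 CPM in expressing cells and 223 CPM in 0-count cells and was read in 12.5% of expressing cells and 33.8% of 0-count cells. Birc5, a subunit of the chromosomal passenger complex, had 53.5 CPM in expressing cells and 130.8 CPM in 0-count cells.

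Cells were also counted by how many of the G2/M genes they held. As the same genes are used, the shares restate the lower level of the list and are no further result. Cells with at least 8 of the 31 G2/M genes at 10 CPM or more numbered 8 of 64 expressing cells (12.5%, exact interval 5.55 to 23.2%) and 21 of 77 0-count cells (27.3%, 17.7 to 38.6%). On plate 1 the shares were 17.5% of expressing cells and 27.8% of 0-count cells, and on plate 2 they were 4.17% of expressing cells, which is 1 cell, and 26.1% of 0-count cells. Cells with at least 6 of the 24 S phase genes and without the G2/M pattern made up 28.1% of expressing cells and 27.3% of 0-count cells. Cells that met either limit, called the cycling class here, made up 40.6% of expressing cells and 54.5% of 0-count cells. Of the 29 cells with the G2/M pattern 8 expressed Atp6v0d2 (27.6%), against 56 of the remaining cells (49.1%). Without those 29 cells, the median ratio of the G2/M list was -0.34, while that of the PAM list was 0.13. The cells left out were chosen by the G2/M genes, so the change of that list is in part built in. S phase genes were lower on both plates in 13 of 24 cases, against 31.3% of all genes, with a median of -0.03 on plate 1 and -1.73 on plate 2. Without the cycling class, which is itself defined by S phase and G2/M genes, their median over both plates together was 0.39 rather than -0.47.

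Chemokine and cytokine genes were higher on both plates in 7 of 9 cases, against 22.1% of all genes, and 0 passed 2-fold on both. Ccl3 had 209 CPM pooled in expressing cells and 108.7 CPM in 0-count cells, Csf1 had 372 CPM in expressing cells and 213 CPM in 0-count cells, and Ccl6 had 389 CPM in expressing cells and 197 CPM in 0-count cells. Il1a, the gene of interleukin 1 alpha, had 77.1 CPM in expressing cells and 28.3 CPM in 0-count cells and was read in 32.8% of expressing cells and 18.2% of 0-count cells. Among 8 immediate early and stress genes, which dissociation of tissue can induce, Jun was past 2-fold and higher, against 1.33% of all genes. Its pooled level was 90.9 CPM in expressing cells and 35.4 CPM in 0-count cells. Atf3 had 95.3 CPM in expressing cells and 35.4 CPM in 0-count cells, while Btg2 and Ier2 were lower on both plates. The part of dissociation in the chemokine values was not tested.

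Of 15 glycolysis genes 6 were higher and 0 lower on both plates, by small amounts. Over all genes, the shares to set beside this and the next lists were 22.1% higher and 31.3% lower. Hif1a, the oxygen-regulated factor that controls many of them, had medians of 327 CPM in expressing cells and 194 CPM in 0-count cells, with log2 ratios of 0.76 and 0.81. Among 20 lipid handling genes 8 were higher and 5 lower on both plates. Beside Fabp5, these included the lipid droplet coat gene Plin3, with medians of 164 CPM in expressing cells and 57.6 CPM in 0-count cells, and Soat1, which esterifies cholesterol, with 884 CPM in expressing cells and 676 CPM in 0-count cells. Of 11 cholesterol synthesis genes 1 was higher and 5 lower on both plates, and their median ratio of -0.40 was 0.064 without the cycling class. Oxidative phosphorylation genes (9 higher and 7 lower of 26), complement genes (1 and 0 of 8), phagocytic receptors (3 and 4 of 14) and interferon response genes (1 and 1 of 5) did not lean clearly to either side.

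**Figure D5:**
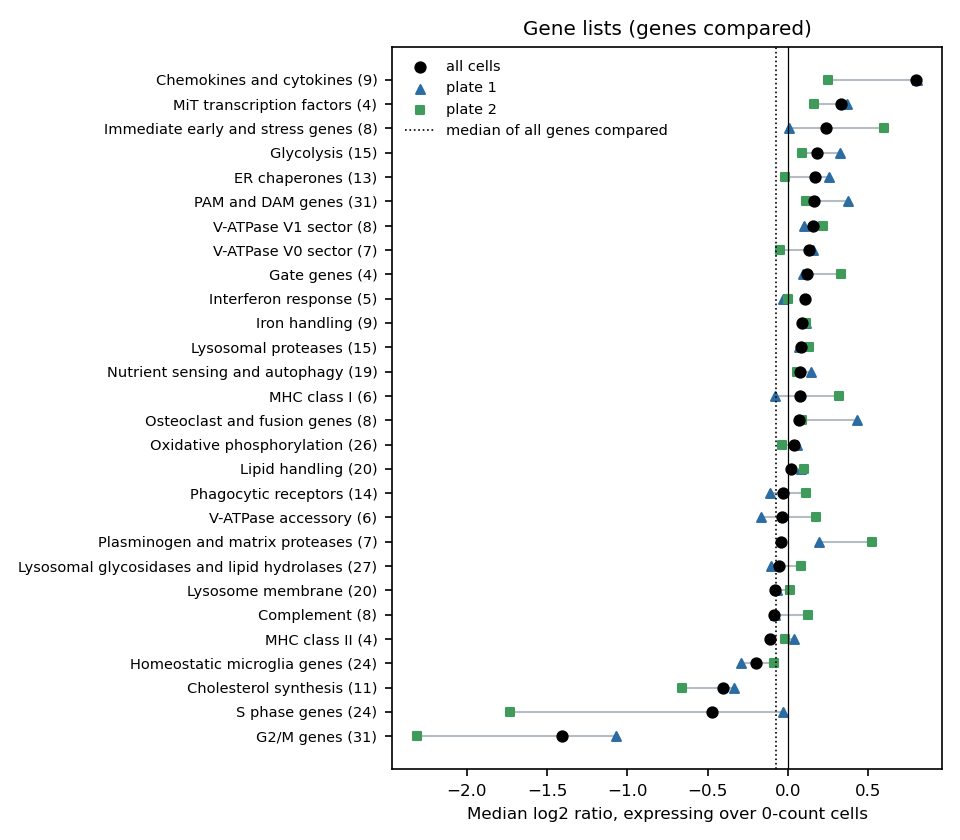
Median log2 ratio of expressing over 0-count cells for each gene list with at least 3 genes compared (number in brackets), marker lists of other cell types left out, in all cells (black circles), on plate 1 (blue triangles) and on plate 2 (green squares). The dotted line is the median of all genes compared, at -0.07; of the lists drawn, the G2/M list lies lowest at -1.41 and the chemokine list highest at 0.80.

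Leading genes were taken from those at least 2-fold apart overall and on each plate. They also had to be read, on each plate, in at least 20% of the cells of the group where they were higher. That rule sets a floor for their read shares in that group, and it left 53 genes on the higher side. The order followed the smaller absolute log2 ratio of the plates. Most of the leading genes on the higher side were still sparse. Of the 15 leading genes higher in expressing cells, Itgax was read in 76.6% of those cells and the others named here in 23.4 to 40.6%. They included Nrap, a muscle actin-binding protein gene, with 49.4 CPM pooled in expressing cells and 8.65 CPM in 0-count cells. The lactate transporter gene Slc16a1 had 59.6 CPM in expressing cells and 20.6 CPM in 0-count cells, and the checkpoint gene Cd276 had 60.1 CPM in expressing cells and 16.6 CPM in 0-count cells. Eif2c2, the gene of Argonaute 2, had 32.4 CPM in expressing cells and 10.5 CPM in 0-count cells. They also included Oraov1, Spg7, Vps13a, Slc24a5, Slc35a5, Emilin2, Eif2c1, Slc9a8 and Hivep3, with log2 ratios of 1.41 to 1.86. In the genes named here the 3 highest expressing cells held 20.6 to 61.8% of the CPM added over the single expressing cells.

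The 15 leading genes lower in expressing cells included genes of cell division: Stil of centriole duplication, Spc24 of the kinetochore, the condensin gene Ncapg, Cdca2, Mki67 and the histone gene Hist1h4i. Spc24 had 15.9 CPM in expressing cells and 72.4 CPM in 0-count cells, and was read in 9.38% of expressing cells and 38.96% of 0-count cells. Zfand1 had the lowest ratio, -2.61, with 2.77 CPM in expressing cells and 22.04 CPM in 0-count cells. They also included Usf2, Rassf1, Pus10, Ilkap, Ppp2r2d, N4bp2l2 and Shoc2, with log2 ratios of -1.74 to -2.53. Without the cycling class described above, the ratio was 0 for Stil and Cdca2 and 0.049 for Ncapg, while it was -1.51 for Spc24, -2.57 for Hist1h4i and -4.42 for Mki67. A ratio of 0 is the value a gene without reads in either group takes, so it does not show equal levels. The levels behind these ratios are not given here.

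Markers that define other cell types were low in both groups, and those of the oligodendrocyte lineage were higher in expressing cells. The 12 markers of that lineage summed to 160 CPM in expressing cells and 85.8 CPM in 0-count cells. Per cell the sum had a median above 0 in expressing cells, with a range of 0 to 629 CPM, and a median of 0 in 0-count cells, with a range of 0 to 626 CPM. Of 4 genes compared 3 were higher on both plates, against 22.1% of all genes, and 1 passed 2-fold, against 1.33%. The latter was Mag, a myelin protein gene, at 26.7 CPM in expressing cells and 8.24 CPM in 0-count cells. Cnp had 83.2 CPM in expressing cells and 53 CPM in 0-count cells, and Cspg4, which marks oligodendrocyte precursors, had 30.2 CPM in expressing cells and 13.4 CPM in 0-count cells. Mog, Mobp, Cldn11, Olig1, Sox10 and Pdgfra were at 0 in all cells. The sum is small beside Spp1 or Igf1, and its part in the results was not tested.

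Border-associated macrophage markers summed to 754 CPM in expressing cells and 913 CPM in 0-count cells. Most of that came from genes microglia of this gate also read, Stab1 in 87.5% of expressing cells and 88.3% of 0-count cells and Folr2 in 79.7% of expressing cells and 68.8% of 0-count cells, with Mrc1 at 127.1 CPM in expressing cells and 222 CPM in 0-count cells. Cbr2 was read in 1.56% of expressing cells and 16.9% of 0-count cells, and Cd163, Lyve1 and Cd209f were at 0 in all cells. Of 11 lymphocyte markers 1 was read, Cd79b, in 35.9% of expressing cells and 38.96% of 0-count cells. Monocyte markers summed to 70.6 CPM in expressing cells and 59.5 CPM in 0-count cells, astrocyte markers to 35.1 CPM in expressing cells and 43.9 CPM in 0-count cells, and vascular markers to 20.3 CPM in expressing cells and 5.69 CPM in 0-count cells. Neutrophil markers summed to 2.09 CPM in expressing cells and 1.35 CPM in 0-count cells, and neuron markers to 11.8 CPM in expressing cells and 8.29 CPM in 0-count cells.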

How the data were processed

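The authors deposited 1 table of raw read counts per gene and cell for 143 cells. Per the submitters' processing notes, the build was mm10 and the tools included STAR 2.5.3a, HTSeq, Trim Galore 0.4.3 and Picard; the annotation, settings and use of strand are not given in the sources used here. Of 23337 gene rows 12801 had a count; the 92 spike-in rows were left out. Gene counts per cell ranged from 259613 to 1178529 (median 727276), and without molecular identifiers they are not independent molecules.

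Counts were summed over the cells of a group and scaled to CPM with Python 3.11.15, pandas 2.3.3 and scipy 1.17.1. Ratios used a pseudocount of 1 CPM, and genes under 10 CPM pooled over all cells were left out. Intervals of shares are exact Clopper-Pearson at 95%. Alternatives included TMM factors from edgeR 4.0.16. The calculation was tested on simulated counts. The members, lists and rules were chosen with earlier results of these data known. Genes were named by rule: V-ATPase, MiT, osteoclast and gate genes, the 15 leading genes each way, the 10 with the highest plate correlations, up to 4 per other list, and markers read in over 20% of cells. Those named outside it, Serinc3, Tmsb4x, Sod1 and some list members given for contrast, were chosen after their values were seen. Coordinates and exon lengths are from GENCODE on GRCm38, which matched 78 of 81 named genes, and symbols are those of the table. A few genes that the rule selects are not reported here. The pooled library name holds the word adult, while the age label and title give postnatal day 7, which was used.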

Additional observations from a re-analysis of the deposited data

How the results depend on the processing

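Of 7615 genes, 1.33% were higher and 216 (2.84%) lower in expressing cells in the main calculation. No filter on low values gave 357 higher (2.79%) and 496 lower (3.88%) of 12800 genes. A pooled level of 50 CPM or more gave 7 (0.23%) and 19 (0.62%) of 3085 genes. The other settings compared 7615 genes. A pseudocount of 10 CPM gave 30 and 67, and a limit of 1.5-fold 311 and 587. Leaving out the cycling class gave 369 higher and 338 lower. Leaving out cells of the G2/M pattern gave 170 higher, and the mean log2 level over cells gave 59 lower. A rank measure was added after seeing the data: the share of cell pairs in which the expressing cell was higher, with tied pairs split evenly. Pairs without a read in either cell are such ties. The measure gave 12 genes at 65% or more on both plates and 2 at 35% or less. Its 12 were Aplp2, Cd84, Fabp5, Igf1, Itgax, Pld3, Rasgrp3, Slc23a2, Spp1, Tmem106a, Tmem184b and Vat1, and its 2 were Cx3cr1 and Serinc3. Scaling to spike-ins gave 144 higher and 160 lower and put the median of all genes at 0.05 against -0.07. It turned positive the small negative medians of the V-ATPase accessory, lysosome membrane, glycosidase, complement, phagocytic receptor and MHC class II lists. The V1 median of 0.16 became 0.37 with the mean log2 level over cells. Without the cycling class the median reversed to -0.043 for MiT factors, to 0.064 for cholesterol synthesis and to 0.39 for S phase genes. In that setting Ncapg reversed to 0.049. The ratios of Stil and Cdca2 became 0, the value a gene without reads in either group takes, which is not a reversal. The cholesterol median was 0.022 without G2/M cells. The causes of these shifts were not tested. The G2/M median was -0.23 without the cycling class, and the PAM median 0.26. Over 15 alternatives the log2 ratio of Itgax ranged from 1.34 to 3.71, that of Fabp5 from 1.13 to 2.39 and that of Serinc3 from -1.10 to -0.97. No paired analysis was possible because all cells come from 1 pool and no test was made. Depth limits genes read in few cells: by the counting of reads alone, a count of 0 in a median cell allows up to 4.05 CPM. RNA lost before sequencing is not covered.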
